A study of Mus musculus with 34 samples.

Results

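V(D)J recombination was followed through 7 genes of its machinery: Rag1 and Rag2, Dntt, Dclre1c, Prkdc, Xrcc4 and Lig4. They were chosen by name for their role, with earlier results of these data known, and each was taken from the probeset of highest mean signal that carries its symbol. Of the 7 genes, 6 were measured, out of 19938 genes in all, each by a single probeset. Dclre1c was matched to no probeset in the annotation table and was not analysed here.

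The 34 arrays came from pre-B acute lymphoblastic leukaemia cells of BCR/ABL transgenic mice, made into the lines 8093 (inbred C57Bl/6J background) and Bin-2 (mixed background). Each line came from a single transgenic mouse, so a line stands for 1 leukaemia. All cells, starts included, carried the BCR/ABL transgene and were grown on irradiated mouse embryonic fibroblasts with IL-3, and only floating or loosely attached cells were taken for RNA. Each line went through a course of nilotinib (AMN107, an inhibitor of the ABL kinase) and a course of lonafarnib (SCH66336, a farnesyltransferase inhibitor), with the drug present to the last day. Nilotinib was given to 8093 at 20 nM, with arrays at days 0, 3 and 20, and to Bin-2 at 50 nM, with arrays at days 0, 3 and 21. Lonafarnib was given to 8093 at 1 µM, with arrays at days 0, 4 and 26, and to Bin-2 at 0.25 µM, with arrays at days 0, 3 and 30. The 3 stages of a course are called start, midpoint and end. Viability was 5 to 10% at the midpoints (20% in 8093 under lonafarnib) and about 90% at the ends. Each group held 3 arrays from separate plates, except the 2 groups of 8093 ends, which held 2 each. The p-values therefore measure the spread between plates of a line, not between leukaemias.

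Developing lymphocytes assemble the genes of their antigen receptors by cutting and rejoining V, D and J segments. The RAG1 and RAG2 proteins form the recombinase that cuts at the recombination signals and leaves hairpin-sealed coding ends. DNA-PKcs (Prkdc) activates Artemis (Dclre1c), which opens the hairpins, terminal deoxynucleotidyl transferase (Dntt) adds bases without a template, and XRCC4 with DNA ligase IV (Lig4) seals the joint. Rag1, Rag2 and Dntt are lymphoid genes, whereas Prkdc, Xrcc4 and Lig4 belong to non-homologous end joining, the repair of double-strand breaks that most cells carry out.

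The upstream sequences of the 3 lymphoid genes are shown because these genes changed most, and because Rag1 and Rag2 are neighbours on chromosome 2. Each run is the 250 bases before the RefSeq start in GRCm38.p6, written 5′ to 3′ on the strand of the gene. They lie at chr2:101649533-101649782 on the minus strand for Rag1, at chr2:101624462-101624711 on the plus strand for Rag2 and at chr19:41029025-41029274 on the plus strand for Dntt. Capitals mark matches to 7 short motifs searched on both strands: the E-boxes CAGCTG and CAGGTG, the FOXO core TGTTTA, the RUNX motif TGTGGT, the Ikaros motif TGGGAA, the EBF motif (TCCC and GGGA with any 2 bases between) and the CCAAT box.
Rag1: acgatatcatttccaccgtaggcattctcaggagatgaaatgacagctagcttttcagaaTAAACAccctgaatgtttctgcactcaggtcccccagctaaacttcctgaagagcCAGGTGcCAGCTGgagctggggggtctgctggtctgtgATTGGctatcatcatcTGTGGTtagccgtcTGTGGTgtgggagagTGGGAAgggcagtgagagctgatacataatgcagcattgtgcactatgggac
Rag2: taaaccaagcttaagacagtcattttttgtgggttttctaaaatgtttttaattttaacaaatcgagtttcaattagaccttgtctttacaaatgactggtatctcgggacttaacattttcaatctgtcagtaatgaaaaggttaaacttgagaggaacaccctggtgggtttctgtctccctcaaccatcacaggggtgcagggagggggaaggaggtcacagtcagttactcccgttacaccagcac
Dntt: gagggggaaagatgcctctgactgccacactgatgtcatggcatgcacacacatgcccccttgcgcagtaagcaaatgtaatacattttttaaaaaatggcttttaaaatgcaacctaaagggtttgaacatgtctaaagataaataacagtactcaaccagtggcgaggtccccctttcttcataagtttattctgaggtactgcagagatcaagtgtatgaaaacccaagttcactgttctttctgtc
The Rag1 window held CAGGTG and CAGCTG, which did not overlap, TGTGGT at 2 places, TGGGAA, and on the other strand TGTTTA and CCAAT. The windows of Rag2 and Dntt held none of these letters. Among 32851 windows of this length, 13.0% held CAGCTG, 17.2% CAGGTG, 12% TGTTTA, 14.0% TGTGGT, 21.6% TGGGAA, 0.779% the EBF motif and 33.8% CCAAT, so that matches of this kind were common. A match is a stretch of letters and no measure of binding.

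Values are log2 probeset signals as deposited, and a difference of 1 is a doubling or halving of signal. A gene was called changed at an adjusted p below 0.05 from limma, adjusted over 19938 genes. The start arrays carried the labelled cell type: 9 of 10 pre-B markers were measured, and their mean ranged from 9.29 to 10.02 over the 4 start groups. That mean stayed between 9.44 and 10.19 in every later group but the 8093 nilotinib end, where it was 5.82. Mast cell markers (10 genes) averaged 3.92 to 4.43 at the starts and 11.64 at the 8093 nilotinib end, and macrophage markers (9 genes) went from 5.08 to 9.04 there. Fibroblast and T cell lists stayed between 4.39 and 5.55 in all 12 groups. The 1027 olfactory receptor genes, which serve as a mark of dim signal, had group means with a 95th percentile of 4.71.

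**Figure D1:**
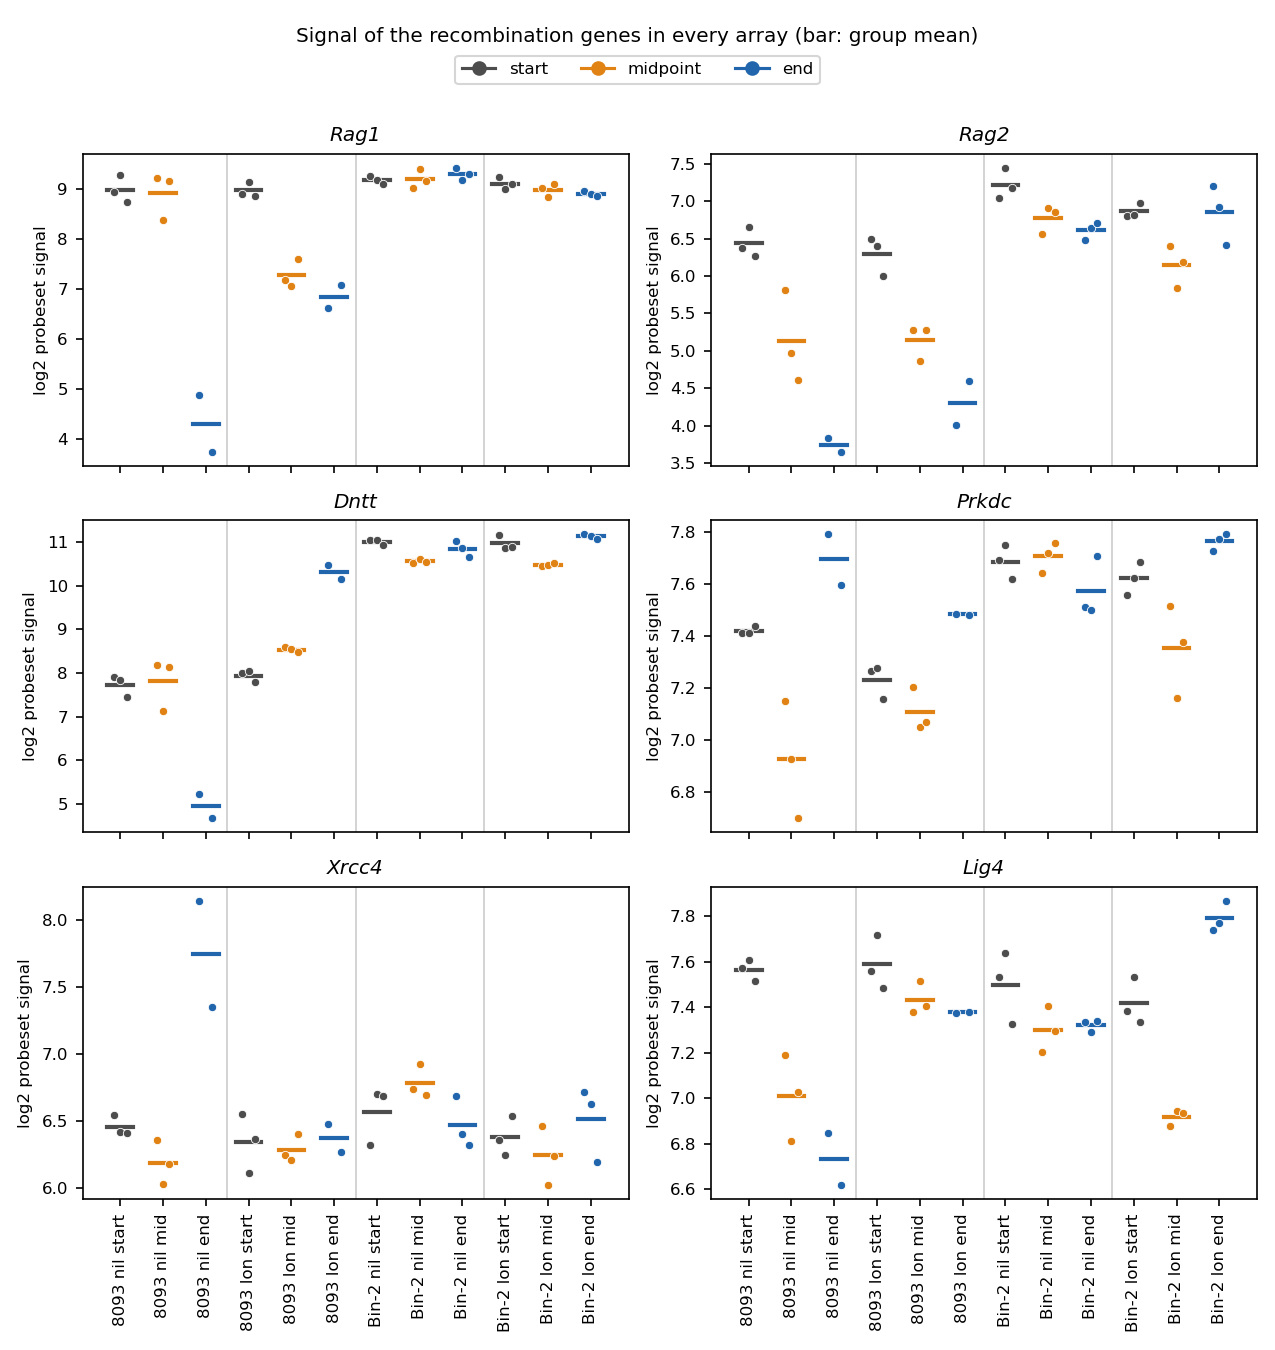
Log2 probeset signal of the 6 measured genes in each of the 34 arrays, by line, drug (nil, nilotinib; lon, lonafarnib) and stage; points are arrays, bars are group means, and each panel has its own axis. Rag1, Rag2 and Dntt are lowest at the 8093 nilotinib end, whereas Dntt is at 10.17 and 10.48 at the 8093 lonafarnib end, near the Bin-2 arrays.

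Before drug the lines differed most in Dntt. The 6 start arrays of 8093 read 7.44, 7.84 and 7.91 in the nilotinib course and 7.78, 8.0 and 8.04 in the lonafarnib course. The 6 of Bin-2 read 10.93, 11.05 and 11.06, and 10.87, 10.89 and 11.16. All Bin-2 arrays were above all 8093 arrays, and Dntt was 8.92-fold higher in Bin-2 (95% interval 7.43 to 10.7; adjusted p = 5.36e-18). Of 19938 genes, 13 had a larger difference in that direction. Rag2 was higher in Bin-2 by 0.68 ± 0.16 (SE; adjusted p = 0.00179) and Prkdc by 0.33 ± 0.07 (adjusted p = 0.00110), again with no overlap between arrays. Of all genes, 6.8% were higher in Bin-2 with no overlap. Rag1 differed by 0.16 (95% interval -0.14 to 0.47), Xrcc4 by 0.07 (-0.17 to 0.32) and Lig4 by -0.12 (-0.27 to 0.03), and none of these passed. The line comparison thus called 3 of 6 genes, all higher in Bin-2, where 20.1% of all genes were called and 9.47% were called higher. The start arrays of the 2 courses within a line did not differ in any of the 6 genes by limma (adjusted p from 0.476 upwards in 8093 and from 0.976 upwards in Bin-2, and no unadjusted p under 0.05), where 0% of all genes were called. Without replicate 1 of the nilotinib start, 198 genes were called between the 8093 starts, none of the 6 among them.

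The recombinase genes fell in 8093 under both drugs. Rag1, which carries the catalytic core of the recombinase, read 8.75, 8.94 and 9.28 at the 8093 nilotinib start and 8.39, 9.17 and 9.23 at the midpoint. At the end it read 3.75 and 4.87. The midpoint arrays thus overlapped the start, and both end arrays were far below. At that end 38.5% of all genes lay below the start without overlap. Rag1 fell by 4.68 ± 0.24 from start to end (95% interval 4.20 to 5.16; adjusted p = 2.05e-16), and only 10 genes fell further. The change to the midpoint was -0.06 ± 0.21 (adjusted p = 0.825), so that the fall lay between day 3 and day 20 (-4.62; adjusted p = 8.90e-16).

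Under lonafarnib the timing of Rag1 in 8093 was another. Its start arrays read 8.87, 8.91 and 9.15, its midpoint arrays 7.07, 7.18 and 7.61, and its end arrays 6.62 and 7.08. The midpoint lay below every start array, as in 17.7% of all genes, and overlapped the end. Rag1 fell 3.22-fold by day 4 (-1.69 ± 0.21; adjusted p = 2.60e-06) and 4.38-fold by day 26 (-2.13 ± 0.24; adjusted p = 3.12e-07). Of all genes, 4 fell further at the midpoint and 5 at the end. From midpoint to end the difference was -0.44 (95% interval -0.93 to 0.04; adjusted p = 0.328).

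Rag2, the partner that reads the chromatin mark of active genes, fell in both 8093 courses as early as the midpoint. In the nilotinib course it read 6.27, 6.38 and 6.66, then 4.61, 4.97 and 5.81, then 3.65 and 3.83. In the lonafarnib course it read 6.00, 6.40 and 6.49, then 4.87, 5.28 and 5.28, then 4.01 and 4.59. Each stage lay below the one before it with no overlap, which was common over all genes. Under nilotinib 28.7% of all genes lay lower without overlap from start to midpoint and 38.6% from midpoint to end. Under lonafarnib the shares were 17.7% and 19.9%. Against the start the nilotinib changes were -1.31 ± 0.22 at the midpoint (adjusted p = 1.58e-05) and -2.69 ± 0.25 at the end (adjusted p = 2.07e-10). The lonafarnib changes were -1.15 ± 0.22 (adjusted p = 8.50e-04) and -1.99 ± 0.25 (adjusted p = 2.41e-06). The further lonafarnib step from midpoint to end, -0.84, passed at an adjusted p of 0.0405 and missed it on leaving out either of midpoint replicates 1 and 3 (-0.77 each) or end replicate 1 (-0.55). That call was also lost by limma after quantile normalization (-0.71, adjusted p = 0.162) and interquartile scaling (-0.79, adjusted p = 0.0795). The arrays of the line alone (adjusted p = 0.0915) and every probeset (adjusted p = 0.0741) lost it too. Rag1 at the 8093 nilotinib end and Rag2 at both 8093 ends were below the 95th percentile of olfactory receptor genes, so the size of those falls is not exact.

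In Bin-2 the recombinase genes moved little. Rag1 read between 8.84 and 9.43 in all 18 Bin-2 arrays, and its largest change from a start was -0.20 ± 0.21, at the lonafarnib end. Rag2 read 7.04, 7.17 and 7.45 at the nilotinib start, 6.56, 6.85 and 6.91 at the midpoint and 6.48, 6.65 and 6.72 at the end. The later arrays were all below the start, as were those of 14.7% of all genes at the midpoint and 15.9% at the end, but neither change passed (-0.45, adjusted p = 0.348, and -0.61, adjusted p = 0.0952). The untreated lonafarnib start arrays of Bin-2 were also all below this nilotinib start, by -0.36 in the mean, as were 6.2% of all genes. A gap of that kind was thus present without drug. Under lonafarnib Rag2 read 6.80, 6.82 and 6.97, then 5.83, 6.19 and 6.40, then 6.42, 6.93 and 7.21. It dipped by 0.72 ± 0.22 at the midpoint (adjusted p = 0.0262) and was back at the start level at the end (-0.01; 95% interval -0.47 to 0.45). The dip missed the threshold without start replicate 2 (-0.74) or 3 (-0.67), without midpoint replicate 2 (-0.57) or 3 (-0.75), and after quantile normalization (-0.62; adjusted p = 0.118).

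The change of Rag1 differed between the lines at the midpoint of lonafarnib (Bin-2 minus 8093, 1.57; adjusted p = 0.00166) and at both ends (nilotinib 4.81, adjusted p = 4.18e-13; lonafarnib 1.93, adjusted p = 1.88e-04). That of Rag2 differed at both ends (2.09, adjusted p = 1.05e-05, and 1.98, adjusted p = 2.83e-04). At the nilotinib midpoint the Rag2 difference was 0.86 (limma, adjusted p = 0.0445), a call kept in 4 of 12 fits that left out an array. At the lonafarnib midpoint it was 0.43 and passed in no fit, so the midpoint falls of Rag2 under lonafarnib were not shown to differ between lines. Between the drugs in 8093, Rag1 fell less by day 3 of nilotinib than by day 4 of lonafarnib (difference 1.63; adjusted p = 1.64e-04) and more by the end (-2.55; adjusted p = 3.38e-07). Days and doses differed between the drugs. The drug difference for Rag2 was -0.15 at the midpoint (95% interval -0.80 to 0.50), which did not pass. At the end both Rag2 groups lay below the mark of dim genes, and no difference is read between them. The end difference for Rag1 likewise rests on a nilotinib group below that mark, so its size is not exact. Over the 12 group means Rag1 and Rag2 had a Pearson r of 0.88, a description of groups that share lines and starts.

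The signal of Rag1 minus that of Rag2 within each array was followed as well, of which only the shift between stages has a meaning. In the 8093 nilotinib course it was 2.56 ± 0.07 at the start and 3.80 ± 0.66 at the midpoint (SD, n = 3 each), a shift of 1.24, and in the 8093 lonafarnib course it shifted the other way by the midpoint, by -0.53. In Bin-2 it shifted by 0.46 at the midpoint and 0.73 at the end of nilotinib and by 0.60 at the midpoint of lonafarnib. Each of these 5 shifts had a two-sided p of 0.1 by an exact permutation test, the smallest that 3 against 3 arrays allow, so that none could pass. At the Bin-2 lonafarnib end the shift was -0.19 (exact permutation p = 0.5). At both 8093 ends Rag2 lay below the mark of dim genes, and no shift is read there.

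Dntt, the template-free polymerase whose added bases diversify the junctions, moved in opposite directions under the 2 drugs in 8093. In the nilotinib course it read 7.44, 7.84 and 7.91, then 7.12, 8.14 and 8.18, then 4.67 and 5.23. In the lonafarnib course it read 7.78, 8.0 and 8.04, then 8.48, 8.54 and 8.59, then 10.17 and 10.48. The nilotinib end lay below and the lonafarnib end above every earlier array of its course. Without overlap, 38.5% of all genes were below the start at that nilotinib end and 18.1% above it at that lonafarnib end. Against the midpoint the shares were 38.6% and 17.4%, so such a separation was common. Dntt fell 6.87-fold by the nilotinib end (-2.78 ± 0.20; adjusted p = 1.26e-12) and rose 5.21-fold by the lonafarnib end (2.38 ± 0.20; 95% interval of the fold 3.90 to 6.96; adjusted p = 3.43e-09). Only 14 genes rose further at the lonafarnib end. The drugs differed by -5.16 at the end (nilotinib minus lonafarnib; adjusted p = 1.00e-14). The nilotinib end array at 4.67 lay below the dim-gene mark of 4.71, and the group mean of 4.95 was just above it. The size of that fall, and of differences that rest on it, is therefore not exact.

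Most of the rise of Dntt came after the midpoint (1.79 ± 0.20; adjusted p = 1.18e-06). The change to day 4 of lonafarnib was 0.60 ± 0.18 (adjusted p = 0.0325), and it missed the threshold whichever of the 6 arrays was left out (0.52 to 0.70 over all settings, highest adjusted p 0.138). At the nilotinib midpoint Dntt had a change of 0.08 ± 0.18 (adjusted p = 0.733), which became 0.43 (adjusted p = 0.0187) without midpoint replicate 2. The end level under lonafarnib approached that of Bin-2, where Dntt read 10.46 to 11.18 in all 18 arrays: the higher of the 2 arrays, at 10.48, lay within the range of the Bin-2 lonafarnib midpoint and below all arrays of the other 5 Bin-2 groups.

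In Bin-2 Dntt read 10.93 to 11.06 at the nilotinib start, 10.52 to 10.62 at the midpoint and 10.66 to 11.03 at the end. It read 10.87 to 11.16 at the lonafarnib start, 10.46 to 10.52 at the midpoint and 11.08 to 11.18 at the end. The midpoints were the lowest groups in both courses, by 0.45 under nilotinib (adjusted p = 0.210) and 0.49 under lonafarnib (adjusted p = 0.0652), and neither passed. The rise from midpoint to end of lonafarnib passed (0.65 ± 0.18; adjusted p = 0.00747), but it was 0.19 (adjusted p = 0.509) after scaling to a common interquartile range. The lines differed in the change of Dntt at the lonafarnib midpoint (-1.09; adjusted p = 0.0120), which was lost after that scaling (-0.70; adjusted p = 0.152), and at both ends (nilotinib 2.62, adjusted p = 6.01e-09; lonafarnib -2.22, adjusted p = 2.61e-06).

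**Figure D2:**
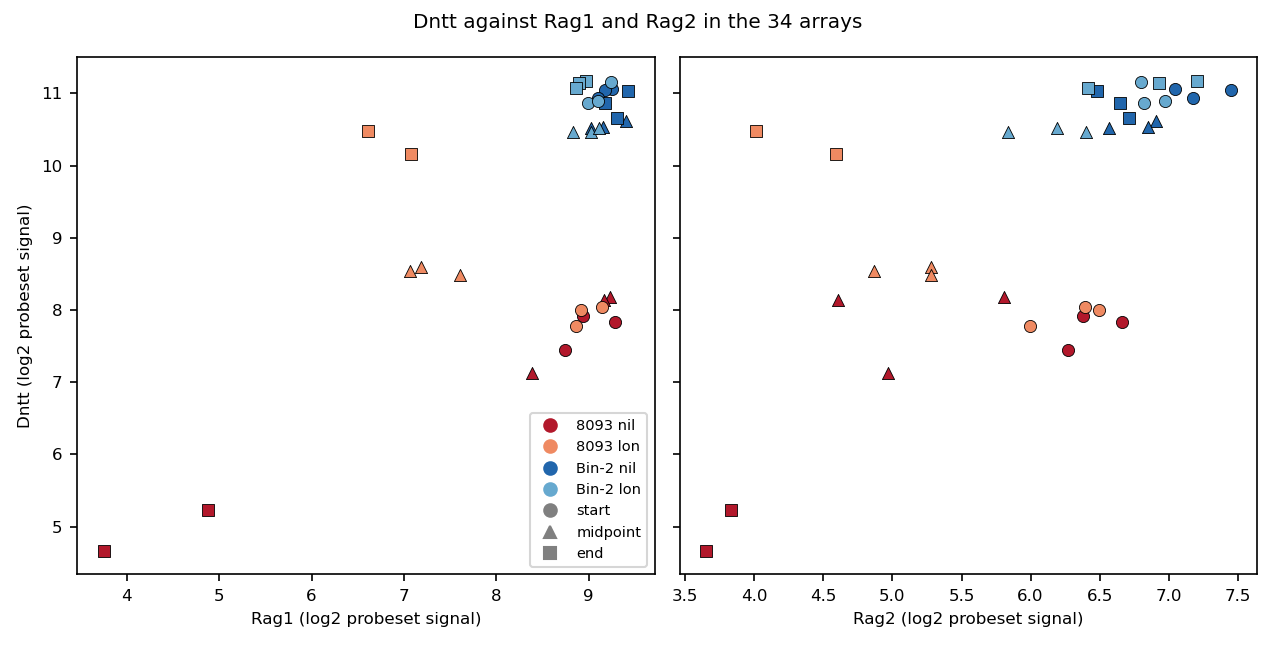
Log2 signal of Dntt (vertical axis) against Rag1 (left) and Rag2 (right) in the 34 arrays; colour gives line and drug, shape the stage. The 2 arrays of the 8093 nilotinib end are low in all 3 genes, and the 2 of the 8093 lonafarnib end combine Rag1 of 6.62 and 7.08 with Dntt of 10.48 and 10.17.

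The markers of pre-B and other cells were set beside both patterns. At the 8093 nilotinib end 8 of the 9 markers fell, with a median change of -4.16 over the list. Among them were Igll1 (-4.52) and Vpreb1 (-4.42), which make the surrogate light chain, and Ebf1 (-4.37), a transcription factor of early B cells. Blnk, an adaptor of the pre-B receptor, rose by 0.63. All 10 mast cell markers rose there (median 7.49), and 8 of 9 macrophage markers (median 4.28). At that end 24.9% of all genes were called lower and 19.6% higher. In bulk RNA fewer cells of a type and less RNA per cell cannot be told apart, and the part of the changed cell types in the falls of Rag1, Rag2 and Dntt was not tested.

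At the 8093 lonafarnib end, by contrast, 2 of the 9 pre-B markers rose (Blnk by 1.32, from a start in the dim range, and Blk by 0.81), none was called lower, and the median over the list was -0.13. Mast cell markers rose in 5 of 10 (mean 3.92 at the start and 5.30 at the end) and macrophage markers in 1 of 9, with 1 lower. The shares over all genes were 4.4% called higher and 4.31% called lower. In an array-by-array comparison, Rag1 minus the pre-B marker mean went from -0.43 ± 0.18 at the start (SD, n = 3) to -2.67 ± 0.41 at the end (SD, n = 2). Dntt minus that mean went from -1.46 ± 0.16 to 0.81 ± 0.13, against 0.67 to 1.01 over the group means of Bin-2. The marker mean is not on the same footing in both lines, since Blnk, which is part of it, was far higher in Bin-2 before drug. Without the subtraction, Dntt averaged 10.32 at that end, below every Bin-2 group mean (10.48 to 11.14). In the nilotinib course of 8093, Rag1 minus the mean went from -0.30 ± 0.31 at the start (SD, n = 3) to -1.51 ± 0.84 at the end (SD, n = 2). Rag1 thus fell further than the marker mean, but that mean includes Blnk, which rose there. The mean also fell less than the median gene of the list. Igll1, Vpreb1 and Ebf1 fell nearly as far as Rag1, and Pax5 fell less. Dntt minus the mean went from -1.56 ± 0.20 to -0.87 ± 0.44 and Rag2 minus the mean from -2.85 ± 0.26 to -2.08 ± 0.17. The end means of Rag1 and Rag2 lay in the dim range, and that of Dntt was just above it. Signals that dim can fall little further, so no lesser fall of Dntt or Rag2 than of the marker mean is read. These within-array differences were not tested. At the lonafarnib midpoint the mast cell list rose in 9 of 10 genes (mean 6.45) and the macrophage list in 5 of 9, beside 1 of 9 pre-B markers called each way. There 3.89% of all genes were called higher and 6.9% lower.

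The 3 end-joining members are described gene by gene, since signals of different probesets are not on 1 scale. Prkdc encodes the catalytic subunit of the DNA-dependent protein kinase. In the 8093 nilotinib course it read 7.41, 7.41 and 7.44, then 6.70, 6.93 and 7.15, then 7.60 and 7.79. It was lower than every start array at the midpoint, as were 28.7% of all genes. At the end it was higher than every start array, as were 23.1% of all genes. The dip was -0.49 ± 0.10 (adjusted p = 2.00e-04), the end change 0.27 ± 0.12 (adjusted p = 0.0546), and the step between them 0.77 ± 0.12 (adjusted p = 2.27e-06). The end change passed without end replicate 2 (0.37; adjusted p = 0.0384). Quantile normalization reduced the dip to -0.19 (adjusted p = 0.114).

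Under lonafarnib Prkdc in 8093 was 7.16 to 7.27 at the start, 7.05 to 7.20 at the midpoint and 7.48 to 7.49 at the end. Neither change from the start passed (-0.12, adjusted p = 0.563, and 0.25, adjusted p = 0.208). Its step from midpoint to end was 0.37 (adjusted p = 0.0482) and missed the threshold without midpoint replicate 2 (0.35), midpoint replicate 3 (0.35), end replicate 1 (0.37) or end replicate 2 (0.38). The step also missed it by limma after quantile normalization (0.30, adjusted p = 0.0901) and interquartile scaling (0.34, adjusted p = 0.0833). The arrays of the line alone (adjusted p = 0.144), every probeset (adjusted p = 0.0592) and both replicate blocks lost it too. In Bin-2 the 18 arrays ran from 7.16 to 7.79, and the step from the lonafarnib midpoint (7.16 to 7.51) to the end (7.73 to 7.79) was 0.41 ± 0.10 (adjusted p = 0.00306). That step was 0.15 after quantile normalization (adjusted p = 0.260).

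Xrcc4, the scaffold of ligase IV, rose in a single group. It read 6.41, 6.42 and 6.55 at the 8093 nilotinib start, 6.03, 6.18 and 6.36 at the midpoint and 7.35 and 8.14 at the end. Its other 32 arrays lay between 6.02 and 6.93, so that both arrays of this end were above all the rest. Without overlap, 23.1% of all genes were above the start at this end and 27.7% above the midpoint. The rise was 2.44-fold (1.29 ± 0.19; adjusted p = 1.03e-06) and 1.56 against the midpoint (adjusted p = 5.22e-08). At the 8093 lonafarnib end the change was 0.03 (95% interval -0.36 to 0.41), and the drugs differed by 1.26 (adjusted p = 3.42e-04). In Bin-2 its changes from the start ran from -0.13 to 0.22 and none passed, and the lines differed at the nilotinib end (-1.38; adjusted p = 5.83e-05).

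Lig4, the ligase itself, fell in the 8093 nilotinib course and turned from low to high in the Bin-2 lonafarnib course. In the former it read 7.51, 7.57 and 7.61, then 6.81, 7.03 and 7.19, then 6.62 and 6.85. In the latter it read 7.34, 7.38 and 7.53, then 6.88, 6.93 and 6.94, then 7.74, 7.77 and 7.87. The first series was below its start from the midpoint on, as were 28.7% of all genes at the midpoint and 38.5% at the end. The second crossed its start level with no overlap at any stage. Without overlap, 20.3% of all genes were lower at that midpoint, 25.8% rose from midpoint to end and 15.2% ended above the start. In 8093 Lig4 fell by 0.55 ± 0.10 at the midpoint (adjusted p = 3.88e-05) and by 0.83 ± 0.11 at the end (adjusted p = 3.55e-07). The fall at the midpoint was -0.23 after quantile normalization (adjusted p = 0.0805).

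In Bin-2 under lonafarnib Lig4 fell by 0.50 ± 0.10 (adjusted p = 0.00132), and it ended 0.37 ± 0.10 above the start (adjusted p = 0.0165), a step of 0.87 ± 0.10 from the midpoint (adjusted p = 2.10e-07). The midpoint fall became -0.28 after quantile normalization (adjusted p = 0.0926). The end change missed the threshold without start replicate 1 (0.36) or 3 (0.33), without end replicate 3 (0.34), after quantile normalization (0.33; adjusted p = 0.0642) and after interquartile scaling (0.33; adjusted p = 0.0580). Lig4 in 8093 under lonafarnib had changes of -0.15 and -0.21, and in Bin-2 under nilotinib of -0.20 and -0.18, and none passed. At the end the drugs differed for Lig4 in 8093 (-0.62; adjusted p = 0.00290) and in Bin-2 (-0.55; adjusted p = 0.0118).

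**Figure D3:**
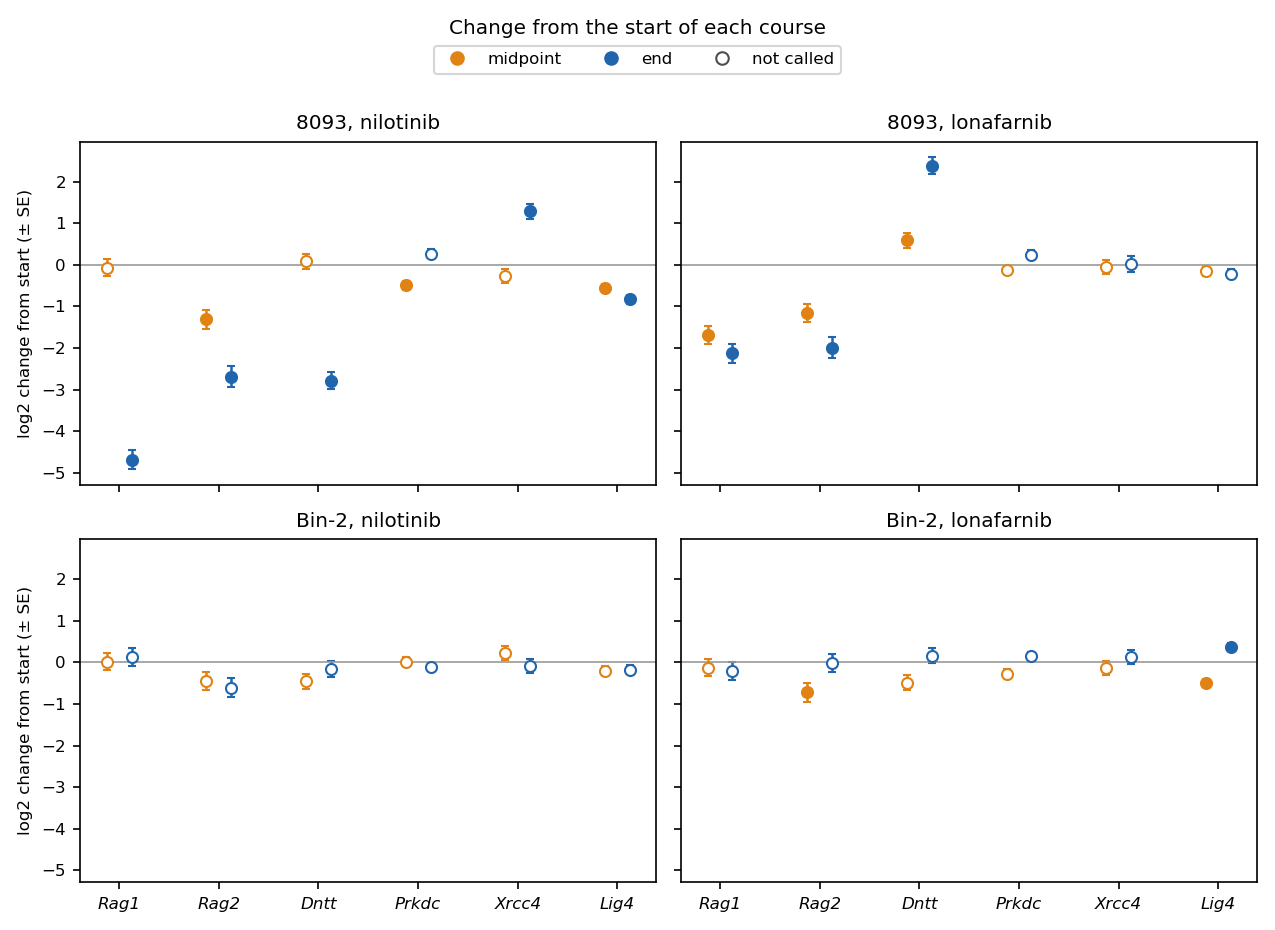
Log2 change from the start of each course (± SE from limma) for the 6 genes at the midpoint and the end; filled points were called at an adjusted p below 0.05, open points were not. Changes in 8093 run from -4.68 (Rag1, nilotinib end) to 2.38 (Dntt, lonafarnib end), whereas none in Bin-2 exceeds 0.72 in size.

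Counted together, 3 of the 6 genes were called lower and none higher at the 8093 nilotinib midpoint, where 50.1% of all genes were called and 27.5% were called lower. At that stage mast cell markers rose in 10 of 10 (mean 9.72), macrophage markers in 8 of 9 (mean 9.03) and fibroblast markers in 7, beside a pre-B marker mean of 9.44, and their part in the 3 falls was not tested. At the 8093 nilotinib end 4 were called lower and 1 higher (44.5% of all genes, 24.9% lower and 19.6% higher), with a median of -1.76 over the 6 against -0.15 over all genes. From the nilotinib midpoint to the end all 6 were called, 2 higher and 4 lower (54.5% of all genes, 26.7% higher and 27.8% lower). The Lig4 call there (-0.27; adjusted p = 0.0418) was lost without midpoint replicate 1 (-0.18) or 3 (-0.27) or end replicate 2 (-0.16). It was also lost with the replicate block (adjusted p = 0.0568), the block by description letter (-0.23), the arrays of the line alone (adjusted p = 0.0914) and array weights (adjusted p = 0.135). Under lonafarnib in 8093, 3 of 6 were called at the midpoint (10.8% of all genes, 6.9% lower and 3.89% higher) and 3 at the end (8.71%, 4.31% lower and 4.4% higher), each time Rag1 and Rag2 lower and Dntt higher. Leaving out an array lowered the counts over all genes, from 2150 at that midpoint to 1123 (without start replicate 1) or 1252 (without midpoint replicate 3), and from 1737 at that end to 1080 (without start replicate 3), 1022 (without end replicate 1) or 666 (without end replicate 2). The median over the 6 genes was -0.14 at that midpoint and -0.09 at that end, against 0.01 and -0.03 over all genes. From the lonafarnib midpoint to the end 3 were called, Rag2 lower and Dntt and Prkdc higher (6.26%, 2.31% lower and 3.95% higher). Only the Dntt call there held under every other setting.

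In Bin-2 under nilotinib 0 of 6 genes were called by limma at the midpoint (3.47% of all genes), at the end (8.89%) and between them (1.41%). Dntt at the midpoint and Rag2 at the end were the genes with an unadjusted p under 0.05 (0.0198 and 0.0114 by limma), and there was none between midpoint and end. Both passed when the fit held the Bin-2 arrays alone (adjusted p = 0.0195 and 0.0403). Macrophage markers rose in 9 of 9 at both of these stages (mean 5.92 at the start, 8.56 and 9.35 later) and mast cell markers in 10 of 10 at the end (mean 7.54), beside a pre-B marker mean of 10.02, 9.89 and 9.84. Under lonafarnib 2 of 6 were called at the midpoint, both lower (16.5% of all genes, 12% lower). There was 1 call at the end, higher (8.07%, 4.66% higher), and 4 between midpoint and end, all higher (29.7%, 19.8% higher). At that midpoint 5 of 9 macrophage markers rose (mean 7.07), 5 fibroblast markers rose, and 4 of 9 pre-B markers fell (mean 9.65), and their part in the falls of Rag2 and Lig4 was not tested.

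The split of all called genes into higher and lower moved with the scaling of the arrays in 5 of these comparisons, and the shares above are to be read with that. At the 8093 nilotinib midpoint 3306 genes were higher and 7100 lower after interquartile scaling, and the median over all genes went from 0.03 to -0.16. Quantile normalization gave 928 higher and 876 lower at the 8093 lonafarnib midpoint, 884 and 1007 at the Bin-2 lonafarnib midpoint, and 2297 and 2161 from that midpoint to the end. Interquartile scaling gave 592 higher and 1175 lower at the 8093 lonafarnib end, and 1058 and 1716 at the Bin-2 lonafarnib midpoint. From the 8093 nilotinib midpoint to the end the median over all genes went from -0.15 to -0.04 by quantile normalization and to 0.02 by interquartile scaling. No called change of a recombination gene turned its sign under either scaling.

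The line differences called 2 of 6 genes at the nilotinib midpoint (26% of all genes), 2 at the lonafarnib midpoint (4.2%), 5 at the nilotinib end (30.6%) and 4 at the lonafarnib end (4.61%). The drug differences called 2 at the 8093 midpoint (26.8%), 0 at the Bin-2 midpoint (1.48%), 4 at the 8093 end (33.2%) and 1 at the Bin-2 end (9.51%). At the Bin-2 midpoint Lig4 was the gene with an unadjusted p under 0.05 (limma, 0.0444). The called drug difference at the 8093 midpoint beside Rag1 was Lig4 (-0.40; adjusted p = 0.0382), and that call was lost in 8 of 12 fits that left out an array. Among the line differences, Prkdc at the nilotinib midpoint (0.52) became 0.25 after quantile normalization (adjusted p = 0.183).

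The other genes of end joining were taken from a list of 10 measured genes, which holds the Ku subunits, XLF and the filling polymerases. At the 8093 nilotinib midpoint 6 fell and none rose, where 27.5% of all genes were called lower. They were led by Xrcc5 (-1.52) and Xrcc6 (-0.82), the Ku subunits that hold broken ends, and Nhej1 (-0.81), which encodes XLF. At the end 6 fell (24.9% of all genes lower), with Xrcc6 at -1.68 and Nhej1 at -1.19, and 2 rose (19.6% higher), Polm by 1.35 and Aplf by 0.75. Polm, a polymerase of end joining, was in the range of dim genes in the other 11 groups. Under lonafarnib in 8093 the list had 1 fall at the midpoint (Xrcc6, -0.43; 6.9% of all genes lower) and at the end 1 fall (Xrcc6, -0.61) and 1 rise (Poll, 0.61). At that end 4.31% of all genes were called lower and 4.4% higher.

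In Bin-2 the same list had 2 falls at the nilotinib midpoint and 3 at the end, where 1.6% and 3.94% of all genes were called lower, among them Nhej1 (-0.65 and -0.64) and Xrcc5 (-0.56 and -0.71). At the lonafarnib midpoint 4 fell (12% of all genes lower), led by Nhej1 (-0.85), and Hmgb2, a DNA-bending partner of the recombinase, rose by 0.85. None was called at the lonafarnib end by limma. Before drug 4 of the 10 were lower in Bin-2, led by Xrcc6 (-0.61), and 2 higher. In that comparison 10.6% of all genes were called lower and 9.47% higher.

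Genes that sense breaks and those of rival repair routes were counted in the same way, to be read against 27.5% of all genes called lower at the 8093 nilotinib midpoint and 24.9% at the end. Of 9 break-response genes, 7 fell at the 8093 nilotinib midpoint, led by H2ax (-1.22) and Rif1 (-1.08). At the end 4 fell and 1 rose, with H2ax at -1.90 and Mdc1, which binds phosphorylated H2AX, at 1.38. All 7 genes of homologous recombination fell at both stages, with Palb2 (-1.37) first at the midpoint and Bard1 (-1.67) at the end. Of 6 genes of alternative end joining 4 fell at the midpoint, led by Polq (-1.33), and 3 at the end, led by Parp1 (-2.49). Under lonafarnib in 8093 these lists had 4, 3 and 2 falls at the midpoint (6.9% of all genes lower), and 1, 0 and 1 at the end (4.31%).

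The list of genes tied to turnover of the RAG proteins held 8 genes. Skp2, Cks1b, Cdk2, Ccna2 and Ccne1 belong to the cyclin-dependent kinase and ubiquitin ligase route that removes RAG2 protein when cells enter S phase, and Dcaf1, Ddb1 and Cul4a form a ubiquitin ligase tied to RAG1. At both stages of nilotinib in 8093, 7 of the 8 fell, all but Cul4a, led by Cks1b (-1.69 and -1.85). Of all genes, 27.5% were called lower at that midpoint and 24.9% at that end. At the lonafarnib midpoint the 5 genes of the RAG2 route fell, led by Ccne1 (-0.93), where 6.9% of all genes were called lower. At the lonafarnib end Ccne1 fell (-0.54) and Cul4a rose (0.43), where 4.31% of all genes were called lower and 4.4% higher. RNA levels carry no information on the protein. Of the later diversification list, 2 of 4 genes were measured. Both, Msh6 and Ung, fell at the 8093 nilotinib midpoint (-1.13 and -0.66; 27.5% of all genes lower) and end (-1.32 and -1.21; 24.9% lower).

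The transcription factors known to act on the Rag locus were counted last, 18 genes in all. At the 8093 nilotinib midpoint, where Rag2 had fallen and Rag1 had not been called, 6 rose (22.6% of all genes higher), led by Pax5 (1.39), and 4 fell (27.5% lower), led by Erg (-0.63). At the end 11 fell, led by Ebf1 (-4.37), Pax5 (-2.97), Spib (-2.94) and Irf4 (-2.19), and 4 rose, led by Gfi1b (1.53), where 24.9% of all genes were lower and 19.6% higher. Spib and Irf4 lay below the mark of dim genes at that end, so the size and rank of their falls are not exact. Foxo1, an activator of Rag1 and Rag2, fell by 0.39 at the midpoint and by 1.44 at the end. Under lonafarnib in 8093 5 rose at the midpoint (3.89% of all genes higher), led by Spib (0.97) and Ikzf3 (0.86), and 1 fell (Ikzf1, -0.37). At the end 5 fell (4.31% of all genes lower), led by Gfi1 (-0.98) and Tcf3 (-0.59), and 2 rose, Ikzf3 (0.92) and Gfi1b (0.70). Foxo1, Ebf1 and Pax5 were not called at either stage of that course.

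In Bin-2, 2 of the 18 factors were called at the nilotinib midpoint, 1 each way (3.47% of all genes called), and 3 at the end, 1 higher and 2 lower (8.89%), with Gfi1b, a repressor of Rag transcription, lower at both (-0.82 and -0.92). At the lonafarnib midpoint there was 1 call each way (16.5% of all genes), and at the end 3 rose, led by Foxo1 (0.72), and Gfi1b fell (-0.49), where 8.07% of all genes were called. Before drug Bin-2 was higher in Irf8 (1.37) and Gfi1b (1.14) and lower in Spib (-0.73) and Foxo1 (-0.49).

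**Figure D4:**
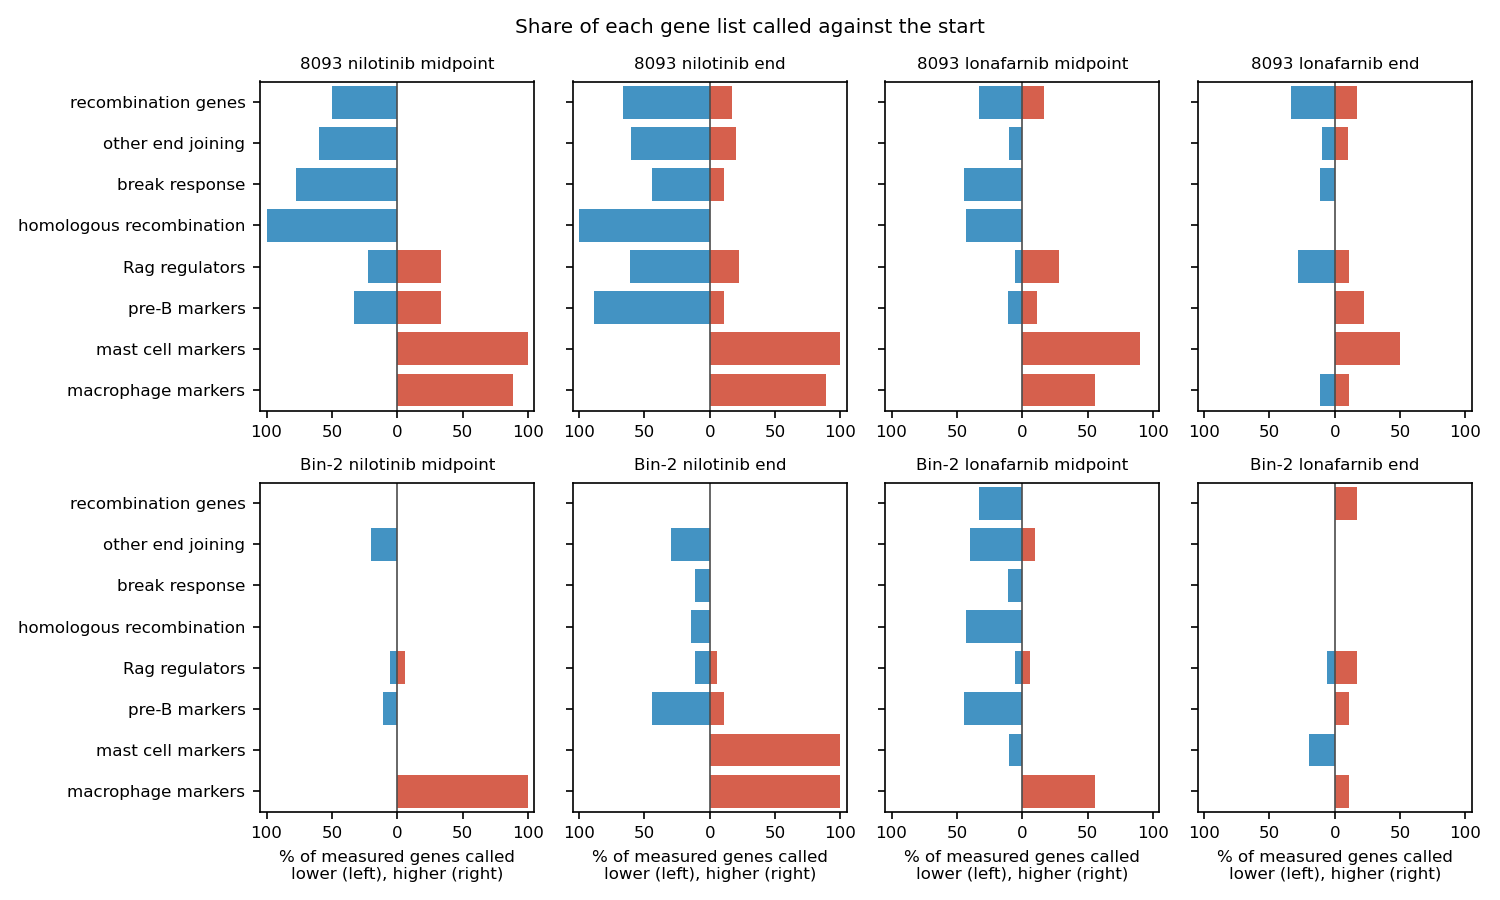
Percent of the measured genes of each list called lower (left of 0, blue) or higher (right of 0, red) than the start, for the 8 later groups. At the 8093 lonafarnib end the recombination genes are called lower in 2 of 6 and higher in 1 of 6, with no pre-B marker called lower.

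The genes whose 12 group means were most like those of each member were taken from 6577 genes spanning at least 1 log2 unit. They were Evl (Pearson r 0.97), Stmn1 (0.92) and Il7r (0.92) for Rag1, and Milr1 (0.94), Zfp706 (0.92) and Nnt (0.92) for Rag2. For Dntt they were Trem1 (0.97), Stk38l (0.96) and Itgal (0.96). Il7r, the receptor chain for interleukin-7, read 10.54 ± 0.13 at the 8093 lonafarnib start, 9.05 ± 0.18 at the midpoint (SD, n = 3 each) and 9.98 ± 0.02 at the end (SD, n = 2), so that it dipped with Rag1 and came most of the way back. Prkdc was nearest to Cep290 (0.98), Sirt3 (0.97) and Akr1e1 (0.95), Xrcc4 to Map7d3, Ints6l and Tango2 (0.97 each), and Lig4 to Smpd2 (0.95), B9d2 (0.94) and St7 (0.94). Map7d3 lay below the mark of dim genes in all 12 groups (2.63 to 4.18). Xrcc4 and Map7d3 both stood apart from their other groups only at the 8093 nilotinib end (7.75 and 4.18). The group means share lines and starts, so these values describe likeness only.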

How the data were processed

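The deposited values were log2 probeset signals of 34 Affymetrix mouse gene arrays, read as log2 from their range of 1.02 to 14.37. Partek is named in the submitters' processing notes. Its version and role, any background correction or normalization, and the build were not given in the sources used here. As per the labels' protocols, RNA was extracted with Trizol and hybridized as biotinylated cRNA. Lonafarnib doses stand as mM in one label and as µM in another; the latter unit was taken. Arrays give no read depth, and their number limits the precision.

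Of 35557 probesets, 21789 had 1 symbol, 1621 had several and 12147 were not listed, and of 999 genes with several probesets the brightest was used. Limma 3.58.1 (R 4.3.3; lmFit, eBayes) fitted 12 group means over 34 arrays (22 residual and 6.6986 prior degrees of freedom) for 23 comparisons, with Benjamini-Hochberg adjustment over 19938 genes and a call at an adjusted p below 0.05. The script was tested on simulated data. Signals within an array were compared by exact permutation (scipy 1.17.1). Alternatives were quantile normalization, interquartile scaling, a filter on dim genes, another probeset rule, every probeset, another variance prior, the arrays of a line alone, both starts together, array weights, replicate blocks and leaving out each array. Named were the 7 genes, up to 4 called genes per list and comparison plus the largest the other way, and 3 like genes per member. Foxo1, Ebf1 and Pax5 beyond that rule, Ung and the rest of the turnover list were named after their values were seen. The members and lists were chosen with earlier results of these data known. Promoter sequences are RefSeq's (GRCm38.p6), found for 6 of the 7 genes.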

Additional observations from a re-analysis of the deposited data

Results flagged for a closer look

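The response of a gene to a drug differed between the lines in 13 cases, by limma's test of the difference between the changes (Bin-2 minus 8093, log2, adjusted over 19938 genes). At the nilotinib midpoint these were Rag2 (0.86; adjusted p = 0.0445) and Prkdc (0.52; adjusted p = 0.00852). The Rag2 difference missed the threshold in 8 of 12 fits that left out an array, in which it ranged from 0.60 to 0.89. At the lonafarnib midpoint they were Rag1 (1.57; adjusted p = 0.00166) and Dntt (-1.09; adjusted p = 0.0120). At the nilotinib end they were Rag1 (4.81; adjusted p = 4.18e-13), Rag2 (2.09; adjusted p = 1.05e-05), Dntt (2.62; adjusted p = 6.01e-09), Xrcc4 (-1.38; adjusted p = 5.83e-05) and Lig4 (0.65; adjusted p = 0.00110). At the lonafarnib end they were Rag1 (1.93; adjusted p = 1.88e-04), Rag2 (1.98; adjusted p = 2.83e-04), Dntt (-2.22; adjusted p = 2.61e-06) and Lig4 (0.58; adjusted p = 0.0199). The last missed the threshold in 5 of 11 fits that left out an array. Doses and days differed between the lines, and each line is 1 leukaemia, so line, dose and day cannot be told apart.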

How the results depend on the processing

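Of 53 called member changes, 36 kept their call under every alternative and on leaving out each array, 17 lost it under some, and no called change turned its sign. Of 231 counts of called members under other settings, 208 lay within 1.5 times the main count and 23 did not. Quantile normalization gave 1 called member in place of 3 at the 8093 nilotinib midpoint, 1 in place of 3 from the 8093 lonafarnib midpoint to the end, 0 in place of 2 at the Bin-2 lonafarnib midpoint, 0 in place of 1 at its end, 2 in place of 4 between them and 1 in place of 2 for the 8093 midpoint drug difference. Interquartile scaling gave 1 from the 8093 lonafarnib midpoint to the end, 0 at the Bin-2 lonafarnib end, 2 from the midpoint to it, 1 for the 8093 midpoint drug difference, and 1 in place of 2 for the lonafarnib midpoint line difference. The arrays of the line alone gave 1 in place of 3 from the 8093 lonafarnib midpoint to the end, 1 in place of 2 for the 8093 midpoint drug difference and 1 in place of 0 at the Bin-2 nilotinib midpoint (Dntt) and end (Rag2), as array weights did in both. Testing every probeset gave 1 in place of 3 from the 8093 lonafarnib midpoint to the end and 1 in place of 2 for the nilotinib midpoint line difference. Both starts together gave 4 at the Bin-2 lonafarnib midpoint, as did the filter on dim genes, and 3 in place of 0 for the Bin-2 midpoint drug difference.

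Leaving out each array gave, lowest to highest, 3 to 4 called members at the 8093 nilotinib midpoint, 5 to 6 at the end and 5 to 6 between them, and 2 to 2, 3 to 3 and 1 to 2 under lonafarnib. Bin-2 gave 0 to 0 throughout nilotinib, and 1 to 3, 0 to 1 and 3 to 4 under lonafarnib. The comparison of lines before drug gave 3 to 3 and the starts 0 to 0. Line differences gave 1 to 3 (nilotinib midpoint), 5 to 6 (nilotinib end), 2 to 2 and 3 to 4 (lonafarnib), and drug differences 1 to 4 and 4 to 4 in 8093 and 0 to 0 and 1 to 1 in Bin-2. Where a lone array was left in a group, it was assumed to vary like the others.

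The same replicate numbers did not pair arrays: 32 same-numbered pairs had correlations of their deviations from -0.18 to 0.16. The replicate block by title number moved no count of called members by over 1.5 times, and it lost Prkdc from the 8093 lonafarnib midpoint to the end (0.35; adjusted p = 0.142). The block by the letter of the description gave 1 in place of 2 for the 8093 midpoint drug difference.

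Counts over all genes moved by over 1.5 times as follows. Bin-2 lonafarnib midpoint had 3287 genes, 1891 by quantile normalization, 5812 with both starts and 5064 of every probeset. Array weights gave 7163 for 10871 (8093 nilotinib midpoint to end), 3712 for 2150 and 2611 for 1737 (8093 lonafarnib midpoint and end), 1809 for 692, 3435 for 1772 and 1009 for 282 (Bin-2 nilotinib midpoint, end and between), 1411 for 838 and 1412 for 920 (lonafarnib line differences), 887 for 295 and 2895 for 1896 (Bin-2 drug differences) and 471 for 0 (8093 starts). The line alone gave 1148 for 1737 at the 8093 lonafarnib end and 3 at the starts, the robust prior 17 and the dim filter 1. Both starts together gave 8116 for 5334, 3385 for 295 and 3070 for 1896 drug differences (8093 midpoint, Bin-2 midpoint and end). Every probeset gave 15864 for 9988, 16614 for 10871, 7806 for 5188, 8070 for 5334 and 613 for 295. The replicate block gave 188 for 295. Leaving out an array gave 823, 687 or 600 (midpoint replicate 2, end replicate 1 or 2) for 1248 from the 8093 lonafarnib midpoint to the end. In Bin-2 it gave 422, 438 or 342 (start replicate 2 or 3, midpoint replicate 1) for 692 at the nilotinib midpoint, 1120 (end replicate 1) for 1772 at its end, 134, 169, 119, 127 or 582 (midpoint replicate 2 or 3, end replicate 1, 2 or 3) for 282 between them, and 1930 (midpoint replicate 2) for 3287 at the lonafarnib midpoint. It gave 530 or 516 for 838 and 566 for 920 lonafarnib line differences (8093 start replicate 3, midpoint replicate 1 and end replicate 2), and 153 to 162 for 295 Bin-2 midpoint drug differences. The spread of signals was narrower at the 8093 nilotinib and Bin-2 lonafarnib midpoints (interquartile ranges 3.03 and 3.16, against 3.42 to 3.55 elsewhere), which is what quantile normalization and interquartile scaling alter.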

Other observations

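The protein-coding genes next to Rag1 and Rag2 on chromosome 2 were read after the values of the members were known. No protein-coding gene of the RefSeq table lies between the pair, and non-coding genes were not looked at. Iftap, next to Rag2, rose by 2.36 ± 0.23 at the 8093 nilotinib end (limma, adjusted p = 6.48e-10), where Rag1 and Rag2 fell, and had a change of -0.42 (adjusted p = 0.315) at the 8093 lonafarnib end. Traf6, next to Rag1, fell by 0.57 ± 0.10 at the nilotinib end (adjusted p = 1.00e-05) and had a change of -0.08 (adjusted p = 0.732) at the lonafarnib end. Prr5l, beyond Traf6, was not called at either end against its start (-0.48, adjusted p = 0.0898, and 0.00, adjusted p = 0.999). Lrrc4c, beyond Iftap, fell by 2.05 ± 0.20 at the nilotinib end (adjusted p = 3.95e-10) and changed by -0.20 (adjusted p = 0.637) at the lonafarnib end.

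Blnk, the adaptor of the pre-B receptor, differed more between the lines than any member of the recombination machinery. Its start arrays averaged 4.59 in 8093, below the dim-gene mark of 4.71 in the lonafarnib course, and 9.55 in Bin-2, a difference of 4.96 ± 0.09 (adjusted p = 4.24e-26).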
